A study of Mus musculus with 8 samples.

Results

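Multidrug-type ABC exporters are membrane proteins that spend ATP to push drugs, conjugated metabolites and signalling molecules out of the cell. The set described here is 6 genes, *Abcc1*, *Abcc3*, *Abcc4*, *Abcc5*, *Abcb1a* and *Abcg2*, taken as the rows whose RefSeq accession maps to these symbols. All 6 were found among the 23930 targets of the assay, 1 row each, and all 6 passed the filter on low counts, which 14601 targets passed. They were measured in liver sinusoidal endothelial cells, which form the porous wall of the liver's capillaries. A cell sorter had gated them as STAB2-high and CD146-high with dim CD45. The donors were young wild-type female Balb/c mice. Each received a vein injection of 150 µg iron citrate or of 0.05 M citrate buffer without iron, and 5 h passed before the cells were taken. Each group had 4 libraries, numbered 1 to 4 as in the labels. The series asks which signals raise the BMP6 ligand in these cells after iron.

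ABC exporters bind ATP at a pair of nucleotide-binding domains, and its hydrolysis drives a substrate through the membrane. The ABCC proteins carry mainly organic anions, among them conjugates with glutathione, glucuronate or sulfate, and act as the last step of detoxification after an enzyme has attached the conjugate. P-glycoprotein, encoded in mice by *Abcb1a* and its copy *Abcb1b*, exports hydrophobic compounds and guards the blood side of tissue barriers. ABCG2 is a shorter protein that works as a dimer. In liver these exporters are best known from hepatocytes, where several face the blood and others the bile. NRF2, a transcription factor released by oxidants and electrophiles, is known to act on several ABCC genes through antioxidant response elements.

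The 2 exporters that rose after iron citrate, *Abcc4* and *Abcc5*, are shown first by the 250 bases before their listed transcription starts, because they moved in the same direction. The windows come from RefSeq's annotation of GRCm38.p6, read 5′ to 3′ on the gene's strand, which is the minus strand for both. Capitals mark a match to the core of the antioxidant response element, TGACNNNGC, on either strand. *Abcc4* has 2 listed starts, on chromosome 14 at chr14:118706220-118706469 and chr14:118676932-118677181. *Abcc5* has 1, on chromosome 16 at chr16:20426395-20426644.
Abcc4 start 1: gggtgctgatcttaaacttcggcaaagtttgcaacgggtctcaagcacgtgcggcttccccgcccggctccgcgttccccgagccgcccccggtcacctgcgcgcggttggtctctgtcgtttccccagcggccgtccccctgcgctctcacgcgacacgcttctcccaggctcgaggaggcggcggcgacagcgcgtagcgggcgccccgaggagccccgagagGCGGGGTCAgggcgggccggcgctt
Abcc4 start 2: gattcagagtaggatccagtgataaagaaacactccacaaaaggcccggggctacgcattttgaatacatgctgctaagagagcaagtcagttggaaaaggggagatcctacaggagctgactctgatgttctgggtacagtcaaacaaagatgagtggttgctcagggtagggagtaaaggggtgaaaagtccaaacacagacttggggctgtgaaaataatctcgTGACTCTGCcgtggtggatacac
Abcc5 start 1: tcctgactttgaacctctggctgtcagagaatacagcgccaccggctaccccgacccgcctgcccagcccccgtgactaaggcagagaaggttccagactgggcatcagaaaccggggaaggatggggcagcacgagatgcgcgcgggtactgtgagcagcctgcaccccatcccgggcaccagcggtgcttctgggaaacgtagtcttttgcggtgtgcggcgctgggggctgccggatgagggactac

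Both *Abcc4* windows held 1 match to TGACNNNGC. At the first start it lay 25 to 17 bases before the start and read TGACCCCGC on the opposite strand, and at the second it lay 23 to 15 bases before the start and read TGACTCTGC. No match was found in the *Abcc5* window. Of all 32851 listed windows of the same length, 10.2% held at least 1 match. RefSeq listed 7 starts for 4 of the 6 exporters, and the windows of *Abcb1a* and of the 3 starts of *Abcg2* held no match either. *Abcc1* and *Abcc3* had no entry. TGANTCA, the AP-1 site, and CCGGAAG, an ETS site, were in none of the 7 windows, against 6.75% and 6.91% of all windows. In its first 30 bases after the start, the *Abcc5* entry matched the beginning of the GENCODE M21 transcript paired with the counted accession, while neither *Abcc4* entry was found in its paired transcript. The assay reads 1 short amplicon per gene, so it does not tell which start was in use, and a match of letters is not a bound site.

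*Abcc4* (MRP4), which exports cyclic nucleotides, prostaglandins and bile salts, rose 3.15-fold after iron citrate, from 24.6 ± 6.85 to 77.7 ± 11.3 CPM (SD, n = 4 each). CPM are read counts scaled to a common library size, with TMM factors. The buffer libraries 1 to 4 stood at 16.7, 21.6, 28.2 and 32.1 CPM and the iron citrate libraries at 70.8, 66.1, 82.9 and 90.9 CPM. The lowest iron citrate value was 2.06 times the highest buffer value, so the groups lay far apart. With edgeR the log2 fold change came to 1.66 (SE 0.21, adjusted p = 0.00649), and 0.356% of tested targets had a higher one. *Abcc5* (MRP5), an exporter of cyclic nucleotides and nucleotide analogues, rose 1.90-fold from 53.9 ± 8.59 to 102 ± 11.6 CPM. Its buffer values were 43.4, 50.4, 61.6 and 60.2 CPM and its iron citrate values 105, 97.0, 117 and 90.3 CPM. These groups did not overlap either, at a log2 fold change of 0.93 (SE 0.15, edgeR adjusted p = 0.0221). The adjusted p of *Abcc5* ranged from 8.96e-07 to 0.138 over 18 other settings. The call was lost without buffer library 2 (adjusted p = 0.138) or 3 (0.0524) or iron citrate library 1 (0.113), 2 (0.0882), 3 (0.123) or 4 (0.0578), at log2 fold changes of 0.86 to 0.99. *Abcc4* passed in every one of the 18 settings.

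Thus 2 of the 6 exporters rose, none fell and 4 did not pass. Over all tested targets 0.527% rose and 0.0274% fell, and 6.36% had all 4 iron citrate values above all 4 buffer values, as *Abcc4* and *Abcc5* did. No exporter had all 4 iron citrate values below all 4 buffer values, an order seen in 2.29% of tested targets. The median log2 fold change was 0.49 over the 6 exporters and -0.01 over all tested targets. The exporters were chosen with earlier results of these data known, so these counts are a description. Of 11 lists of cell type markers, 1 also separated the groups. The 8 monocyte and dendritic cell markers measured summed to 382 to 510.1 CPM after buffer and 512 to 564 CPM after iron citrate. The dendritic cell lectin *Clec9a* rose from 197 ± 22.1 to 333 ± 4.41 CPM (log2 fold change 0.76, edgeR adjusted p = 0.0221), with no overlap, and was the only marker edgeR called in the 11 lists. DESeq2 and limma-voom called it too, as well as *Mcam* (CD146; DESeq2 adjusted p = 0.00279, limma-voom 0.00813). *Mcam* had all 4 iron citrate values below all 4 buffer values (edgeR log2 fold change -0.50). DESeq2 further called *Vwf*, and limma-voom *Cldn5*, *Csf3r* and *Retnlg*. Over all tested targets DESeq2 called 2.41% and limma-voom 1.98%. Without *Clec9a* the other 7 summed to 162 to 323 CPM after buffer and 175 to 230 CPM after iron citrate. Of all 8 markers, 2 had a log2 fold change above 0 and 6 below 0. Named after their values were seen, the further dendritic cell markers *Siglech*, *Xcr1* and *Flt3* had log2 fold changes of 0.69, -0.54 and -0.60 that did not pass. The part of these cells in the rise of *Abcc4* and *Abcc5* was not tested. In sorted bulk RNA, fewer cells of a type and less RNA per cell cannot be told apart. Levels of different genes were not compared, since each gene has its own amplicon.

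**Figure D1:**
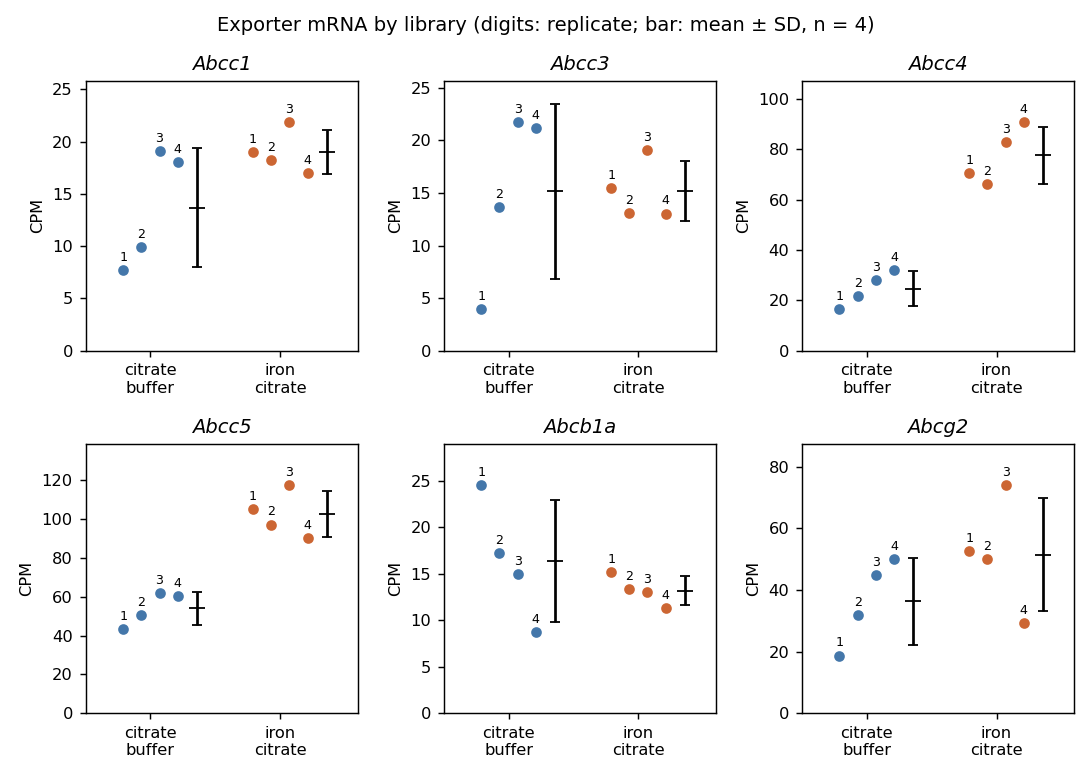
CPM of each exporter in every library, with citrate buffer in blue and iron citrate in orange, digits for the replicate number and bars for the mean ± SD of 4 libraries. The groups are separate for *Abcc4* and *Abcc5* and overlap for the other 4 genes, and buffer library 1 holds the lowest value of all 8 libraries for every exporter except *Abcb1a*, for which it holds the highest.

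The 2 exporters known best for conjugates did not pass. *Abcc1* (MRP1), which exports glutathione conjugates and leukotriene C4, averaged 13.7 ± 5.70 CPM in the buffer group and 19.0 ± 2.07 CPM in the iron citrate group. Its buffer values were 7.71, 9.94, 19.1 and 18.0 CPM and its iron citrate values 19.0, 18.2, 21.9 and 17.0 CPM. Buffer libraries 3 and 4 lay within the iron citrate range, while 1 and 2 lay below. For *Abcc1* edgeR gave a log2 fold change of 0.48 (SE 0.30, adjusted p = 0.395), and 0.03 (SE 0.18) without buffer libraries 1 and 2. *Abcc3* (MRP3), which returns glucuronides and bile salts to the blood, averaged 15.2 ± 8.29 CPM in the buffer group and 15.2 ± 2.85 CPM in the iron citrate group. Its buffer values were 4.00, 13.7, 21.7 and 21.2 CPM, a 5.43-fold span, and its iron citrate values 15.4, 13.1, 19.1 and 13.0 CPM. For *Abcc3* edgeR gave a log2 fold change of 0.01 (SE 0.44, adjusted p = 0.995), far smaller than its SE. Without buffer library 1 it was -0.31 (SE 0.21, adjusted p = 0.554), and without libraries 1 and 2 it was -0.50 (SE 0.20, adjusted p = 0.251), and its sign also changed with the scaling factors, so no direction is given for *Abcc3*.

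*Abcg2* (BCRP), an exporter of urate, porphyrins and sulfate conjugates, averaged 36.4 ± 14.0 CPM in the buffer group and 51.5 ± 18.3 CPM in the iron citrate group. Buffer values were 18.8, 31.7, 45.0 and 50.0 CPM and iron citrate values 52.6, 50.0, 74.1 and 29.3 CPM. Iron citrate libraries 1, 2 and 3 lay above the highest buffer library, the second by less than the rounding of these values, and library 4, which had the highest *Abcc4* value, lay below the buffer mean. For *Abcg2* edgeR gave a log2 fold change of 0.50 (SE 0.33, adjusted p = 0.414), and 0.12 (SE 0.31) without buffer libraries 1 and 2. *Abcg2* was also the most variable exporter within the iron citrate group, with a coefficient of variation of 35.6% against 10.9% to 18.8% for the other 5.

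*Abcb1a*, 1 of 2 mouse genes for P-glycoprotein, averaged 16.4 ± 6.54 CPM in the buffer group and 13.2 ± 1.58 CPM in the iron citrate group, and did not pass. Its buffer values were 24.6, 17.3, 15.0 and 8.75 CPM and its iron citrate values 15.2, 13.4, 13.0 and 11.3 CPM. The iron citrate values all lay inside the span of the buffer values. For *Abcb1a* edgeR gave a log2 fold change of -0.31 (SE 0.30, adjusted p = 0.578). It was -0.06 (SE 0.23) without buffer library 1 and 0.14 (SE 0.24) without buffer libraries 1 and 2.

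Buffer library 1 stood apart across the assay, and buffer library 2 less so. Counts on targets ran from 7969520 to 11314659 per library. Genes of families not known for expression in liver (keratin-associated proteins and receptors for odours, pheromones and bitter taste) took 2.42% of counts in buffer library 1 and 0.984% in buffer library 2, against 0.295% to 0.613% in the other 6. The summed level of 12 sinusoidal endothelial markers was 15670 CPM in buffer library 1 and 24352 to 32520 CPM in the other 7 libraries, so the labelled cell type was present in every library. Over 7 T and NK cell markers the sum was 850 CPM in buffer library 1 and 381 to 612 CPM elsewhere, and over 9 neutrophil markers 459 CPM against 132 to 269 CPM. The 10 continuous endothelial markers summed to 2662 CPM in buffer library 1 and to 3951 to 5986 CPM elsewhere. Of 7 further cell type lists, the sums of erythroid and platelet markers were also highest in buffer library 1. Those of B cell and stellate cell markers were lowest there. The sums of Kupffer cell, monocyte and dendritic cell, hepatocyte and cholangiocyte markers lay within the span of the other 7 libraries. Single markers, named after their values were seen, differed from these sums. In the Kupffer cell list *Lyz2*, at 952 of the summed 1075 CPM, and *Cd68* were highest in buffer library 1. *Clec4f*, *Vsig4*, *Timd4*, *Cd5l*, *C1qb*, *Adgre1* and *Csf1r* were lowest there. In the T and NK cell list *Ncr1* (235 CPM against 48.1 to 103) and *Nkg7* (300 CPM against 127 to 198) were highest in buffer library 1. So were the scarce *Klrb1c* (0.762 CPM) and, narrowly, *Cd3d* (32.8 CPM against 32.3 in buffer library 3). The T cell markers *Cd3e* and *Cd8a* lay within the span of the other 7 libraries, and *Cd4* was lowest in buffer library 1, at 21.3 CPM. Without *Clec9a* the monocyte and dendritic cell sum was highest in buffer library 1, at 323 CPM. None of the markers in these 11 lists was at 0 in all libraries. This library held the lowest value of *Abcc1*, *Abcc3*, *Abcc4*, *Abcc5* and *Abcg2* and the highest of *Abcb1a*, and the part of these signals in the exporter values was not tested. Without buffer library 1 *Abcc4* rose 2.84-fold and *Abcc5* 1.79-fold in mean CPM, and both were called.

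**Figure D2:**
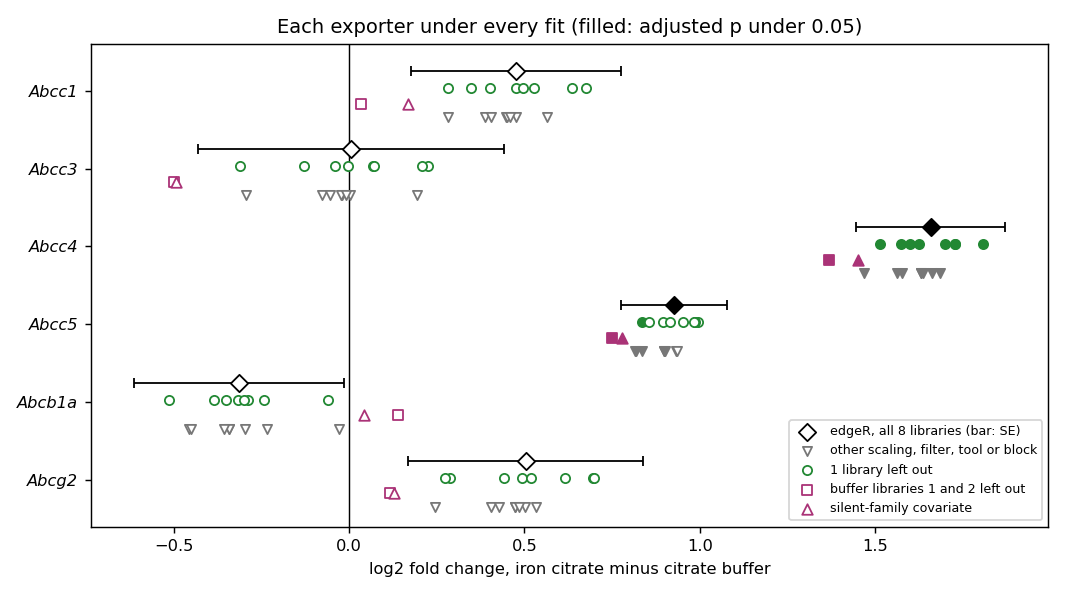
Log2 fold change of each exporter, iron citrate minus citrate buffer, under the edgeR fit to all 8 libraries (diamond, bar for the SE) and under 18 other settings, filled where the adjusted p was under 0.05. *Abcc4* stays between 1.37 and 1.81 and filled throughout, *Abcc5* stays between 0.75 and 0.99 with open symbols for 7 settings, and *Abcc3* and *Abcb1a* fall on both sides of 0.

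The rise of *Abcc4* was compared with that of *Abcc5* through their ratio within each library, which does not depend on library scaling. The ratio of *Abcc4* to *Abcc5* CPM was 0.384, 0.430, 0.458 and 0.533 in buffer libraries 1 to 4 and 0.673, 0.682, 0.706 and 1.01 in iron citrate libraries 1 to 4. The groups did not overlap, and the ratio was on average 0.75 higher on the log2 scale after iron citrate. The ratio was chosen after its values were seen, so it is a description and no p-value is given for it.

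*Abcb1a* and *Abcb1b* encode close copies of P-glycoprotein. Their coding sequences in GENCODE M21, each 3831 bases long, were 88.0% identical and shared a run of 338 identical bases. Among the other pairs of these 7 genes identity was 41.5% to 62.6% and the longest shared run 23 bases. Reads of an amplicon inside the shared run could not be assigned to 1 copy, so both values are uncertain to that extent. *Abcb1b* stood at 25.3, 11.9, 8.55 and 8.61 CPM in the buffer libraries and 17.8, 16.1, 15.9 and 18.1 CPM in the iron citrate libraries (log2 fold change 0.32, SE 0.35, edgeR adjusted p = 0.635). Buffer libraries 2, 3 and 4 lay below every iron citrate value and buffer library 1 lay above them all. The ratio of *Abcb1a* to *Abcb1b* was 0.9699, 1.458, 1.750 and 1.015 after buffer and 0.8516, 0.8286, 0.8212 and 0.6244 after iron citrate. It was lower in all 4 iron citrate libraries than in any buffer library, with a log2 difference of -0.70. Neither copy passed on its own, and this ratio too was chosen after its values were seen and is given without a p-value.

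**Figure D3:**
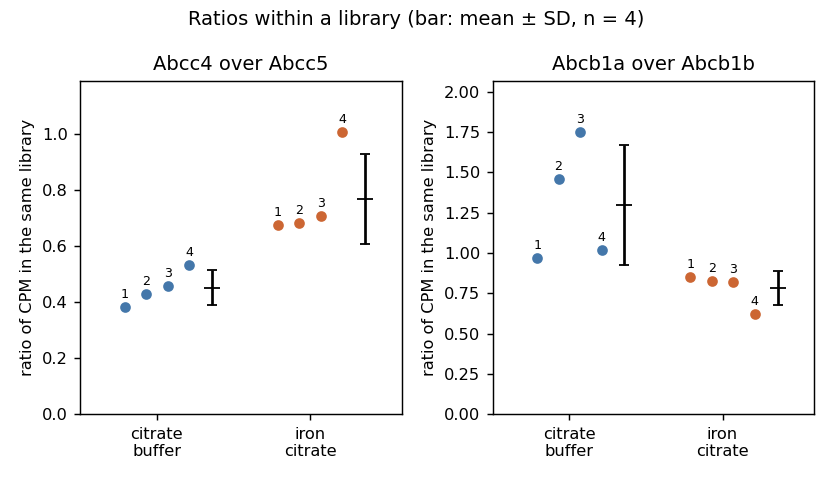
Ratio of *Abcc4* to *Abcc5* CPM (left) and of *Abcb1a* to *Abcb1b* CPM (right) in each library, with digits for the replicate number and bars for the mean ± SD of 4 libraries. The left ratio is higher and the right ratio lower in all 4 iron citrate libraries than in all 4 buffer libraries.

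Apart from *Abcb1b*, with 65 to 266 reads per library, the other multidrug-type exporters were near the limit of detection. *Abcc2* (MRP2), which carries conjugates into bile, had 0 to 5 reads per library. In the 3 libraries with 0 reads, 3 counts would correspond to 0.267 to 0.286 CPM. *Abcb11*, the bile salt export pump, had 3 to 12 reads and *Abcb4*, the phospholipid exporter of bile, 3 to 9 reads, and none of these 3 genes passed the filter on low counts. The 6 exporters had between 42 and 1117 reads per library.

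Across the rest of the ABC superfamily, 46 more genes were measured and 28 tested, and none was called by edgeR, DESeq2 or limma-voom. At an unadjusted edgeR p under 0.05 there were 2, the peroxisomal transporter *Abcd3* (log2 fold change 0.34) and *Abcg4* (-1.33), both with an adjusted p of 0.333. Over all tested targets 14.6% were under that unadjusted cut. These were named after their values were seen. The median log2 fold change of the 28 was 0.07, with 15 higher and 13 lower. The 6 tested ABCB transporters of mitochondria, lysosome and endoplasmic reticulum had log2 fold changes of -0.19 to 0.06.

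**Figure D4:**
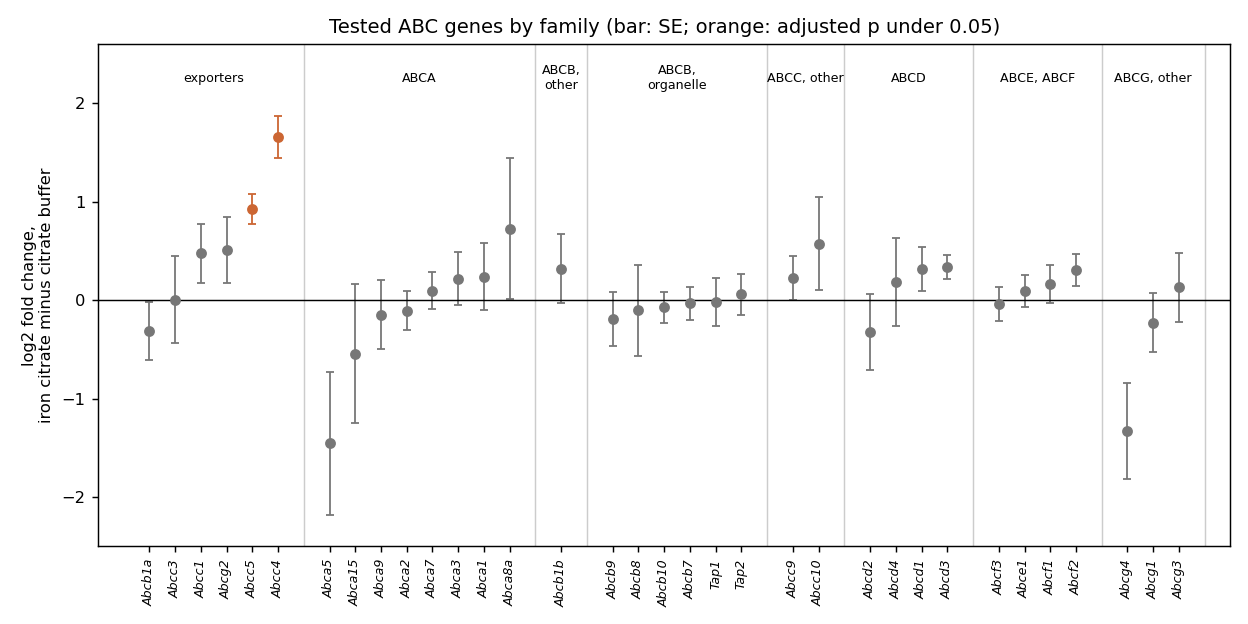
Log2 fold change, iron citrate minus citrate buffer, of the 34 tested ABC genes by family, with bars for the SE and orange for an adjusted p under 0.05. Only *Abcc4* (1.66) and *Abcc5* (0.93) are orange.

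The genes most like the risen exporters across the 8 libraries were found by Pearson correlation of log2 CPM among 11677 targets with a mean CPM of at least 5. Nearest to *Abcc4* were *Car8*, a carbonic anhydrase-related protein (r = 0.993), *Hacd3*, an enzyme of very-long-chain fatty acid elongation (r = 0.991), and *Pgd*, the phosphogluconate dehydrogenase of the pentose phosphate pathway (r = 0.987). All 3 rose, by log2 fold changes of 1.42, 0.89 and 2.14, with edgeR adjusted p-values of 0.00529, 0.0140 and 0.000940. Nearest to *Abcc5* were *Taldo1*, the transaldolase of the same pathway (r = 0.988), the small GTPase *Rheb* (r = 0.986) and the acid ceramidase *Asah1* (r = 0.985). Of these *Taldo1* rose (log2 fold change 1.23, edgeR adjusted p = 0.0168), while *Rheb* had an adjusted p of 0.227 and *Asah1* of 0.125. *Abcc4* and *Abcc5* themselves correlated at r = 0.965. The points share the same 8 libraries and the same group difference, so these correlations are descriptions.

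Genes that handle glutathione or make the conjugates exported by ABCC proteins were read from lists chosen with earlier results in view. Of 11 tested genes of glutathione supply and breakdown, 3 rose, none fell and 8 did not pass, with a median log2 fold change of -0.03 over both kinds. These 3 were *Gclm* and *Gclc*, the subunits of the enzyme that starts glutathione synthesis, at log2 fold changes of 3.73 and 2.34, and the glutathione reductase *Gsr*, at 2.18 (edgeR adjusted p = 9.8e-06, 7.22e-05 and 0.000324). Of 15 tested glutathione S-transferases, which attach glutathione to a substrate, 2 rose with edgeR and 13 did not pass, with a median of 0.36. Of the same 15, 6 had an unadjusted edgeR p under 0.05, and DESeq2 called 4 and limma-voom 3. This list names 23 genes, of which 18 were found by symbol among the targets. *Mgst1*, a membrane-bound member, rose 4.27-fold to 111 ± 9.21 CPM and *Gstm1* rose 4.05-fold to 465 ± 14.4 CPM (edgeR adjusted p = 0.000461 and 0.000576). Of 12 tested genes of glucuronide and sulfate conjugation none was called by edgeR, DESeq2 or limma-voom, with 2 at an unadjusted edgeR p under 0.05 and a median of -0.12. Only 15 of the 23 genes on this list were found by symbol among the targets. No *Ugt1a* gene was found, so that family of glucuronide-forming enzymes was not assessed. Over all tested targets, edgeR called 0.555% in either direction, DESeq2 2.41% and limma-voom 1.98%, and 14.6% had an unadjusted edgeR p under 0.05.

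Further lists covered the signalling substrates of *Abcc1*, *Abcc4* and *Abcc5* and the handling of transporters. With 0.555% of all tested targets called by edgeR, 2.41% by DESeq2 and 1.98% by limma-voom, and 14.6% at an unadjusted edgeR p under 0.05, lists of this size hold few calls at the background share, and their counts are given as a description. Of 12 tested genes of leukotriene and prostaglandin synthesis, breakdown and transport, edgeR called none, with 2 at an unadjusted p under 0.05. DESeq2 called none of them and limma-voom 1, and the median log2 fold change was 0.02. Among 27 tested cyclases, phosphodiesterases and natriuretic peptide receptors of the cyclic nucleotide list, edgeR called none, with 3 at an unadjusted p under 0.05. DESeq2 called 1 of them and limma-voom none, with a median of 0.25. Of 8 tested uptake carriers, which bring organic anions and cations into the cell, edgeR called none, with 2 at an unadjusted p under 0.05, DESeq2 none and limma-voom 1. Their median was -0.12. The 11 tested genes that anchor or recycle membrane transporters likewise had no edgeR or DESeq2 call, 1 at an unadjusted edgeR p under 0.05 and 1 with limma-voom.

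Haem and porphyrin genes bear on *Abcg2*, which exports porphyrins. Of 18 tested, 3 rose and 15 did not pass, where 0.527% of all tested targets rose, and the median log2 fold change was 0.02. The haem oxygenase *Hmox1* rose by a log2 fold change of 5.19, the biliverdin reductase *Blvrb* by 2.72 and the haem transporter *Slc48a1* by 2.31 (edgeR adjusted p = 1.19e-05, 0.000245 and 0.00676). Of 18 tested regulators known to act on exporter genes, 2 rose with edgeR, 16 did not pass and the median was 0.34. Of the same 18, 8 had an unadjusted edgeR p under 0.05, and DESeq2 called 5 and limma-voom 3. The shares over all tested targets were 14.6%, 2.41% and 1.98%. *Mafg*, a small MAF partner of NRF2, went from 37.4 ± 3.50 to 72.8 ± 7.58 CPM, a 1.95-fold rise (adjusted p = 0.00894 with edgeR). *Pparg*, a nuclear receptor of lipid handling, went from 10.2 ± 2.48 to 36.3 ± 2.88 CPM, a 3.58-fold rise (adjusted p = 0.0018 with edgeR). Of 23 tested NRF2 targets outside the ABC family, 15 rose and none fell, against 0.527% and 0.0274% of all tested targets, with a median log2 fold change of 1.37. The largest were *Hmox1*, *Pir* (4.99), *Nqo1* (4.75) and *Srxn1* (4.13), all above the 1.66 of *Abcc4* and the 0.93 of *Abcc5*. That list was drawn up with these results known and is no independent evidence of its direction.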

How the data were processed

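Per the labels' protocols, RNA was read with Ion AmpliSeq, which amplifies a short stretch of each mouse transcript. The authors deposited whole-number read counts per RefSeq target, counted with HTSeq 0.6.0 according to the submitters' processing notes, which name DESeq2 1.18.1 too. Aligner, build and read filters remain not given in the sources used here. HTSeq's summary lines, 2.15% to 4.60% of reads, were left out. Symbols were matched by RefSeq accession (18128 by version, 4324 without it, 110 through GENCODE M21, 1368 unmatched). The design text speaks of 5 against 5 samples, and 4 libraries per group were used here.

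Iron citrate was compared with buffer with edgeR 4.0.16 in R 4.3.3 (filterByExpr, TMM, quasi-likelihood F-test with robust dispersion). Benjamini-Hochberg adjustment ran over all 14601 tested targets, and a call is an adjusted p under 0.05. SEs were taken from the log2 fold change and its F statistic. On simulated data edgeR called 29 of 100 genes with a 2-fold change, 80 of 100 with a 4-fold change and 4 of 14271 unchanged genes. A gene that did not pass may therefore still have changed. The simulated counts varied independently from gene to gene, with no library standing apart as buffer library 1 did. These rates may thus not carry over to the real libraries. The alternatives were other scaling factors, DESeq2 1.42.0, limma-voom (limma 3.58.1), other low-count filters, a replicate block, each library left out, buffer libraries 1 and 2 left out, and the share of counts on gene families not known for expression in liver as a covariate. The exporters and lists were chosen with earlier results of these data known. Besides the exporters, the text names up to 4 called genes per pathway list, the largest first, the 4 other multidrug-type genes, any called cell type marker and 3 genes most like each called exporter. Further genes were named after their values were seen. The labels name 1 mouse per library and no date or batch, and the p-values rest on the spread among these libraries alone, which may be partly technical. Pairs of libraries within a group differed by more than sampling noise. Reads carry no molecular identifiers, so floors cover counting error only. Motifs were searched on both strands in the 250 bases before each start. Coding sequences were the longest reading frames of the GENCODE M21 transcripts paired with the counted accessions, aligned with MAFFT.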

Additional observations from a re-analysis of the deposited data

Results flagged for a closer look

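In 54 groups of 4 libraries, 5 held a library far from the other 3, where chance gives about 1 in 20. The groups were those of 27 genes, the 6 exporters, *Abcb1b* and 20 called or most alike genes, and the other genes named were not checked. None of them was an exporter. Iron citrate library 3 was high for *Mgst1* (125 CPM against 105 to 109), *Taldo1* (225 CPM against 172 to 180.0) and *Rheb* (189 CPM against 159 to 163). Iron citrate library 2 was high for *Slc48a1* (291 CPM against 238 to 244) and low for *Car8* (725 CPM against 933 to 962).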

How the results depend on the processing

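*Abcc4*, at log2 fold changes of 1.37 to 1.81 and adjusted p-values of 2.78e-10 to 0.0432, kept its direction and its call in all 18 settings. *Abcc5* kept its direction in all 18 and its call in 11. *Abcc1* and *Abcg2* kept their direction and stayed without a call in all 18. The sign of *Abcc3* changed with other scaling factors (-0.0218 with relative log expression, -0.0778 with upper quartile, -0.0551 with library totals), with DESeq2 (-0.0228), with limma-voom (-0.29), with a mean CPM of at least 5 (-0.00802), without buffer libraries 1 and 2 (-0.50) and with the share of counts on families not known for expression in liver as a covariate (-0.50). Leaving out 1 library in turn gave *Abcc3* values from -0.31 to 0.22. *Abcb1a* changed sign without buffer libraries 1 and 2 (0.14) and with the covariate (0.0430). The cause was not tested. Upper-quartile factors and library totals moved the median of all targets to -0.12 and -0.11.

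Over all targets 81 were called. DESeq2 called 352, limma-voom 289, the fit without buffer libraries 1 and 2 281, and the covariate fit 499. With 1 library left out the number ran from 46 to 259, the latter without buffer library 1, and the number of exporters called from 1 to 2. The replicate block gave 43 calls and 1 exporter, *Abcc4*, with an adjusted p of 0.0859 for *Abcc5*. Same-numbered libraries correlated in their deviations at -0.01, 0.22, 0.67 and -0.39, and 1 of 4 numbers correlated best with itself, so the numbers were not taken to pair the mice. *Abcc1*, *Abcc3* and *Abcb1a* rest on 42 to 258 reads per library, which limits the precision of each single value.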
